A study of Mus musculus with 9 samples.

Results

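The genes described here are 10 members of the Notch pathway, measured in mouse pancreatic stellate cells: the receptors Notch1, Notch2 and Notch3, the ligands Jag1 and Jag2, and the transcriptional targets Hes1, Hey1, Hey2, Heyl and Nrarp. They were taken by symbol from a table of 17156 genes, whatever their values. Of the 10 symbols, 9 were matched and Heyl was not analysed here. The filter on low counts kept 8 of them for testing and left out Nrarp.

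Stellate cells are the fibroblast-like cells of the pancreas that lay down matrix in injury and cancer. Total RNA depleted of ribosomal RNA was sequenced from wild-type stellate lines of C57BL/6J origin after 4 days of culture, with 3 libraries per group. The CM-JAKi group received medium conditioned by pancreatic tumour organoids together with 500 nM AZD1480, an inhibitor of JAK kinases. The CM group received such conditioned medium without the inhibitor. The MG-CM group received control medium, DMEM with 5% FBS, which another label calls Matrigel-conditioned or control medium. Replicate 1 of every group used the line PSC4. Replicate 2 came from PSC5-I and replicate 3 from PSC5-II, which the labels both give as cell line PSC5. Each replicate number had its own source of conditioned medium, so the line and the medium source cannot be told apart. No group received AZD1480 without conditioned medium. The lines stand for stellate cells kept in culture without tumour cells or other cells of the pancreas beside them.

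Notch receptors are activated by ligands on neighbouring cells. Binding of a Jagged or Delta-like ligand exposes the receptor to ADAM proteases and then to gamma-secretase, and the freed intracellular domain joins RBPJ and a Mastermind coactivator on DNA. The HES and HEY genes, which encode repressors, and Nrarp, which encodes a feedback inhibitor, are classical targets of that complex. In vascular mural cells, relatives of stellate cells, Notch3 is the characteristic receptor, and Jagged1 from neighbouring endothelium is a known activator of it. In the pancreas the pathway is best known for holding back differentiation of progenitor cells.

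The libraries held 25625806 to 32466018 counts, so a level of 1 CPM (counts scaled to the library total, corrected by the TMM factor) rests on few reads. Set side by side per kilobase of exon, the median level over the 9 libraries was highest for Notch2, at 28.1 CPM per kb (range 22.9 to 33.3). Hes1 came next at 9.27 CPM per kb (7.80 to 11.2), followed by Notch1 at 5.40 (2.84 to 7.74), Notch3 at 3.32 (0.889 to 4.97) and Jag1 at 2.48 (1.44 to 3.71). The ranges of Notch1 and Notch3 overlapped, as did those of Notch3 and Jag1. In these libraries the range of Notch2 stood clear of that of Hes1, and the lowest Hes1 level was just above the highest Notch1 level. Hey1 (0.187), Hey2 (0.169), Jag2 (0.0833) and Nrarp (0.0664 CPM per kb) were far lower. The ranges of Hey1 (0.122 to 0.405) and Hey2 (0.0818 to 0.561) overlapped, as did those of Hey2 and Jag2 (0.0594 to 0.121) and of Jag2 and Nrarp (0.0135 to 0.0786). Hey1 lay above Jag2 and Nrarp in all libraries, and the lowest Hey2 level was just above the highest of Nrarp. Stellate cells in these cultures thus held mostly Notch2 transcripts among the receptors and Jag1 rather than Jag2 as the Jagged ligand.

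Promoters are shown for 3 members whose levels in CM lay below those in MG-CM in every library, to set a receptor, a ligand and a target side by side. The RefSeq table of promoters on GRCm38.p6 held 7 of the 10 members, and Hes1, Hey1 and Heyl were not among the 7. Each window is on the minus strand and runs 5′ to 3′ from 250 bases before the annotated start to 10 after it. Capitals mark matches, on either strand, to the RBPJ core TGGGAA, to the N box CACNAG bound by HES repressors, or to the palindrome TTCNNNGAA bound by STAT factors.
Notch3, chr17:32166881-32167140: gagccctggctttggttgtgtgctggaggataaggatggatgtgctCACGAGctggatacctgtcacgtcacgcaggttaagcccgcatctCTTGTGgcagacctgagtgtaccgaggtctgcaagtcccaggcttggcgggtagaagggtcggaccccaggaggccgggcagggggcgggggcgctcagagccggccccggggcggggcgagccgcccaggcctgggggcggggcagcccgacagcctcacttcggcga
Jag1, chr2:137116511-137116770: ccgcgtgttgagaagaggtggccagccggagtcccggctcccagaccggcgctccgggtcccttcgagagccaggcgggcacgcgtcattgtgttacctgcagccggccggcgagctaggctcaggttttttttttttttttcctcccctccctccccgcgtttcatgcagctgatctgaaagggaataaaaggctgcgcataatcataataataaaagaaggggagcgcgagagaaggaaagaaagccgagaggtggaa
Hey2, chr10:30842774-30843033: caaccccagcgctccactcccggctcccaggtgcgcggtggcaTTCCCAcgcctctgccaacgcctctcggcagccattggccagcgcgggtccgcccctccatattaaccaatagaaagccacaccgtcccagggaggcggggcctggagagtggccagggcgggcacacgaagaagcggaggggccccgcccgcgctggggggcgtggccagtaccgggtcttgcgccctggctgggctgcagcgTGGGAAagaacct

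The Hey2 window held 2 RBPJ cores, at bases -207 to -202 on the reverse strand and -3 to 3 across the start. The Notch3 window held 2 N boxes, at -204 to -199 and, on the reverse strand, at -159 to -154. None of the 3 motifs was found in the Jag1 window, and no matches overlapped in these windows. Of the windows not shown, that of the target Nrarp held 0 RBPJ cores and 2 N boxes. Those of Notch1 and Notch2 held 3 and 1 N boxes and 0 RBPJ cores, and that of Jag2 none of the motifs. Of 32851 promoter windows of the same length, 22.4% held an RBPJ core, 37.9% an N box and 7.33% the STAT palindrome. These matches describe letters and do not locate bound sites.

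CM was set against MG-CM to see what tumour organoid conditioned medium does to stellate cells, and CM-JAKi against CM to see what JAK inhibition does in that medium. In CM, Jag1 fell, and Notch1, Notch3, Hey1 and Hey2 were each lower than in MG-CM in 3 of 3 pairs of libraries with the same number. These 4 genes passed the test when the replicate number was a block in the fit, not without it. With AZD1480, Jag1 rose, and Notch1, Notch3 and Hey2 were higher than in CM in 3 of 3 pairs and passed the test with the block, not without it. For Notch1 the pair of replicate 2 was nearly level, at a log2 ratio of 0.04, and the adjusted p with the block was 0.0492. Jag2 was higher in CM than in MG-CM in 3 of 3 pairs, and so was Hes1 in CM-JAKi over CM. Neither passed the test in that comparison, without the block or with it. The share of all genes with 3 pairs of the same sign was not counted. Notch2 and Hes1 passed the threshold in no comparison without the block, with it or by DESeq2. A gene counted as called where its adjusted p was under 0.05 (edgeR quasi-likelihood F-test, Benjamini-Hochberg adjustment over 13613 genes), and all adjusted p values of these genes come from that test unless another tool is named. Libraries of the same number share their line, and values from the fit with the block stand beside those whose call it changes.

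**Figure D1:**
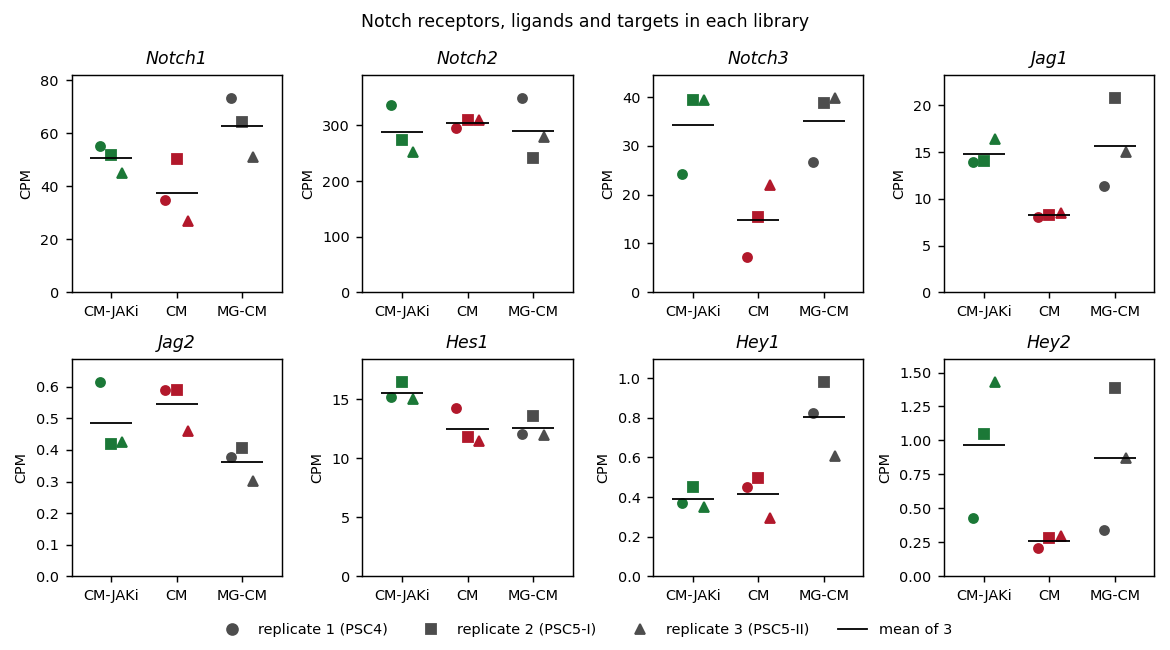
Levels of 8 Notch genes in CPM (vertical axes, each from 0) in CM-JAKi, CM and MG-CM; a symbol is 1 library, its shape the replicate, and the line the mean of 3. The 3 CM libraries sit together at 8.07 to 8.43 CPM for Jag1, below all other libraries, whereas for Notch2 the groups overlap.

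Notch3, the receptor characteristic of mural cells, had 24.2, 39.4 and 39.3 CPM in CM-JAKi replicates 1, 2 and 3, 7.13, 15.4 and 22.0 CPM in CM, and 26.6, 38.7 and 39.9 CPM in MG-CM. Each CM library was lower than every library of the other groups, and replicate 1 was the lowest within each group. CM against MG-CM gave a log2 fold change of -1.24 ± 0.37 (SE; adjusted p = 0.0692, or 0.00494 with the block). CM-JAKi against CM gave 1.21 ± 0.37 (adjusted p = 0.0537, or 0.00323 with the block). By DESeq2 the adjusted p values were 0.00751 and 0.00727. The edgeR calls depended on which libraries were in the fit: without CM replicate 3 the adjusted p was 0.0406 and 0.0293 in these comparisons, and without CM-JAKi replicate 1 it was 0.0453 in the second. Over the 9 libraries left out in turn, it reached 0.197 and 0.159. The fold changes were then -1.64 to -0.91 and 0.87 to 1.60. Both comparisons contain the same 3 CM libraries, so their opposite signs are not separate evidence. Between CM-JAKi and MG-CM the difference was -0.03 ± 0.37, with a 95% interval of -0.86 to 0.80 that leaves room for a difference of either sign.

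Notch1 had 55.2, 51.9 and 45.0 CPM in CM-JAKi, 34.8, 50.4 and 27.0 CPM in CM, and 73.4, 64.3 and 51.2 CPM in MG-CM. The CM libraries lay below those of MG-CM, by a narrow margin between the highest of CM and the lowest of MG-CM, and CM overlapped CM-JAKi. The fold change of CM against MG-CM was -0.75 ± 0.22 on the log2 scale (adjusted p = 0.0650, 0.0131 with the block, 0.0130 by DESeq2). For CM-JAKi against CM it was 0.44 ± 0.22 (adjusted p = 0.196, or 0.0492 with the block). CM replicate 2 stood apart from the other 2 CM libraries, and without it the adjusted p was 0.0242 for CM against MG-CM and 0.0405 for CM-JAKi against CM. Over the 9 libraries left out in turn, the adjusted p reached 0.180 and 0.436 in these comparisons. The fold changes were then -1.03 to -0.56 and 0.24 to 0.71. CM-JAKi and MG-CM overlapped, with a difference of -0.31 ± 0.22 (95% interval -0.81 to 0.19).

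Notch2, which had the highest level of the receptors, had 336, 274 and 253 CPM in CM-JAKi, 295, 311 and 310 CPM in CM, and 350, 241 and 279 CPM in MG-CM. All 3 groups overlapped. The log2 fold change was 0.07 ± 0.15 for CM against MG-CM, with a 95% interval of -0.27 to 0.42 (adjusted p = 0.794). It was -0.09 ± 0.15 for CM-JAKi against CM, with an interval of -0.43 to 0.26 (adjusted p = 0.726). At 6531 to 10919 counts per library, counting error was small beside the spread between libraries.

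Jag1, the main Jagged ligand of these cells, had 13.9, 14.0 and 16.4 CPM in CM-JAKi, 8.07, 8.24 and 8.43 CPM in CM, and 11.3, 20.8 and 15 CPM in MG-CM. Its CM libraries were alike and lay below the 6 others. In CM against MG-CM Jag1 fell by 0.93 ± 0.20 on the log2 scale (adjusted p = 0.0254, or 0.0137 with the block), and in CM-JAKi against CM it rose by 0.84 ± 0.20 (adjusted p = 0.0229, or 0.0123 with the block). The first call was lost without CM replicate 1, 2 or 3 (adjusted p = 0.0705, 0.0599 and 0.0555) and without MG-CM replicate 2 or 3 (0.0815 and 0.0580). The second was lost without CM replicate 1, 2 or 3 (0.0654, 0.0570 and 0.0531) and without CM-JAKi replicate 2 or 3 (0.0645 and 0.0701). Leaving out any of these libraries kept the direction, with fold changes of -1.11 to -0.67 and 0.75 to 0.88 over the 9 libraries left out in turn. CM-JAKi averaged 14.8 ± 1.42 CPM and MG-CM 15.7 ± 4.79 CPM (SD, n = 3 each), a log2 difference of -0.09 ± 0.20.

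Jag2, a second Jagged ligand, rested on 8 to 20 counts per library. It had 0.616, 0.419 and 0.425 CPM in CM-JAKi, 0.591, 0.589 and 0.459 CPM in CM, and 0.377, 0.406 and 0.303 CPM in MG-CM. The libraries of CM-JAKi and of CM all lay above those of MG-CM, so that CM stood higher than the control for Jag2 and lower for Jag1. CM against MG-CM gave 0.58 ± 0.31 on the log2 scale (adjusted p = 0.258, or 0.176 with the block) and CM-JAKi against CM gave -0.16 ± 0.30 (adjusted p = 0.742). A difference of this size was not resolved at these counts.

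Hey2, a target that encodes a HEY repressor and whose promoter window held the 2 RBPJ cores, had 14, 35 and 37 counts in CM-JAKi, 6, 9 and 9 counts in CM, and 10, 41 and 23 counts in MG-CM. As CPM these were 0.431, 1.05 and 1.43 in CM-JAKi, 0.209, 0.279 and 0.295 in CM, and 0.343, 1.39 and 0.872 in MG-CM. The CM libraries lay below all others, and replicate 1 of CM-JAKi and of MG-CM lay near them. CM against MG-CM gave -1.71 ± 0.60 on the log2 scale (adjusted p = 0.103, 0.0230 with the block, 0.0680 by DESeq2). CM-JAKi against CM gave 1.86 ± 0.60 (adjusted p = 0.0597, 0.0116 with the block, 0.0320 by DESeq2). The adjusted p of the second comparison was 0.0322 when CM-JAKi replicate 1 was left out and 0.0382 when MG-CM replicate 1 was. Over the 9 libraries left out in turn, it reached 0.164, and that of the first comparison was 0.0594 to 0.335. The fold changes were then 1.48 to 2.22 in the second and -2.09 to -1.19 in the first. The sums were 86 counts in CM-JAKi, 24 in CM and 74 in MG-CM. With the block the SE was 0.39 in both comparisons, so the spread between replicate numbers, beside these counts, limited how well the folds are known.

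Hey1, a second HEY repressor gene, showed another pattern. It had 0.369, 0.449 and 0.348 CPM in CM-JAKi, 0.452, 0.496 and 0.295 CPM in CM, and 0.823, 0.981 and 0.606 CPM in MG-CM, from 9 to 29 counts per library. CM-JAKi and CM overlapped, and both lay below MG-CM. The log2 fold change was -0.95 ± 0.32 for CM against MG-CM (adjusted p = 0.0966, 0.0353 with the block, 0.172 by DESeq2). It was -0.09 ± 0.34 for CM-JAKi against CM (95% interval -0.85 to 0.68, adjusted p = 0.883) and -1.04 ± 0.33 for CM-JAKi against MG-CM (adjusted p = 0.258, or 0.0793 with the block). Hey1 was lower in CM-JAKi than in MG-CM in 3 of 3 pairs, whereas Hey2 was higher in 2 of 3.

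Hes1, the target with the highest level, had 15.2, 16.5 and 15 CPM in CM-JAKi, 14.3, 11.8 and 11.5 CPM in CM, and 12.1, 13.6 and 12 CPM in MG-CM. CM and MG-CM overlapped, and each CM-JAKi library lay above both. CM against MG-CM gave -0.01 ± 0.12 on the log2 scale, with a 95% interval of -0.28 to 0.26. CM-JAKi against CM gave 0.31 ± 0.12 (adjusted p = 0.0979, or 0.0578 with the block) and CM-JAKi against MG-CM 0.31 ± 0.12 (adjusted p = 0.379). Nrarp had 3, 4 and 5 counts in CM-JAKi, 1, 6 and 5 in CM, and 5, 6 and 5 in MG-CM. Its sums were 12, 12 and 16 counts, with exact 95% Poisson intervals of 6.20 to 21.0, 6.20 to 21.0 and 9.15 to 26.0 that cover counting error alone. No difference was detectable at this depth.

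Counted together, 1 of the 8 tested genes was called lower in CM than in MG-CM and 0 higher, where 5.39% of all genes were called lower and 4.85% higher (10.2% in all). With the replicate block 5 were called lower (Notch1, Notch3, Jag1, Hey1 and Hey2) and 0 higher, where 12.8% of all genes were called lower and 11.6% higher (24.4% in all). By DESeq2, which called 17.2% of its genes in either direction, 3 were called. Without the block, 0 were called when CM replicate 1, MG-CM replicate 2 or MG-CM replicate 3 was left out. Groups did not overlap for 5 of 8 with CM below, against 16.8% of all genes, and for 1 of 8 with CM above, against 16%. The median log2 fold change of the 8 genes was -0.84, and that of all genes 0.01.

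For CM-JAKi against CM, 1 of the 8 was called higher and 0 lower, where 10.1% and 8.93% of all genes were (19% in all). The block gave 4 higher (Notch1, Notch3, Jag1 and Hey2) and 0 lower, where it called 18.6% and 15.6% of all genes (34.2% in all). DESeq2 called 3, against 23.8% of its genes. Without the block, 0 were called when CM replicate 1, CM-JAKi replicate 2 or CM-JAKi replicate 3 was left out, 2 without MG-CM replicate 1 and 3 without CM-JAKi replicate 1. In 4 of 8 genes every CM-JAKi library lay above every CM library, against 20.1% of all genes, and in 0 of 8 below, against 18.3%. The median was 0.38, and that of all genes 0.01. For CM-JAKi against MG-CM edgeR called 0 of the 8 without the block, 0 with it, and DESeq2 called 0, while at an unadjusted p under 0.05 there were 2, Hes1 higher and Hey1 lower. Over all 13613 genes in this comparison, 730 were higher and 723 lower at that unadjusted threshold. Of all genes 0.286% were called higher and 0.72% lower there without the block (1.01% in all), 1.85% and 2.4% with it (4.25% in all), and 3.56% of those DESeq2 tested in either direction. Groups did not overlap for Hes1 and Jag2, with CM-JAKi above, and for Hey1, with CM-JAKi below, that is 2 and 1 of 8 against 8.87% and 8.24% of all genes.

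**Figure D2:**
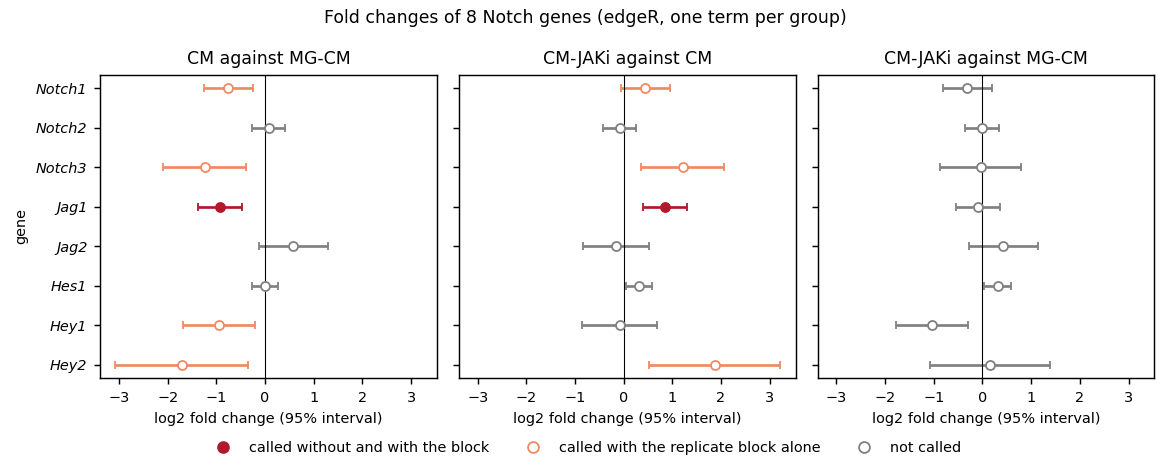
Log2 fold changes of 8 Notch genes (horizontal axis, first group over second) with 95% intervals from the edgeR fit without the block, in 3 panels for the 3 comparisons. Filled red marks Jag1 in the first 2 panels, called without and with the block; open orange marks genes called with the block alone, and grey those not called.

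Pairs of libraries with the same number show how the lines compared. For Notch3 the log2 ratio of CM to MG-CM was -1.90 in PSC4 (number 1), -1.33 in PSC5-I (number 2) and -0.86 in PSC5-II (number 3), and that of CM-JAKi to CM was 1.76, 1.36 and 0.84. For Jag1 the ratios of CM to MG-CM were -0.49, -1.34 and -0.83, and of CM-JAKi to CM 0.79, 0.77 and 0.96. For Hey2 they were -0.72, -2.31 and -1.56, and then 1.05, 1.91 and 2.28. All 3 pairs of each gene thus had the same sign, and PSC4 had the widest ratio for Notch3 and the narrowest for Hey2. In a fit with a term per line and group, 0 of the 8 genes had a called difference between the response of PSC4 and that of PSC5 in any comparison, where 0.228%, 0.367% and 0% of all genes had one. At an unadjusted p under 0.05 there were 2 of 8 in CM against MG-CM, Notch2 and Notch3, against 15.5% of all genes, 1 in CM-JAKi against CM, Notch2, against 12.9%, and 0 in CM-JAKi against MG-CM, against 3.86%. The Notch3 response differed by -0.83 ± 0.29 between PSC4 and PSC5 (adjusted p = 0.256).

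Levels of the receptors relative to each other were also set out per library, a description chosen after the values of single genes were seen. Notch2 held 77.7%, 70.9% and 70.6% of the summed receptor CPM per kb (Notch1 to Notch4) in CM-JAKi, 85.3%, 79.8% and 83.3% in CM, and 74.6%, 65.9% and 71.3% in MG-CM. Its share was higher in each CM library than in any other library. Shares divide one sum, so this restates the lower Notch1 and Notch3 levels in CM and is no separate result on Notch2. The share of Notch3 was 7.32%, 13.4% and 14.4% in CM-JAKi, 2.70%, 5.18% and 7.74% in CM, and 7.44%, 13.9% and 13.3% in MG-CM. The 2 groups of PSC4 outside CM had about as low a Notch3 share as PSC5-II in CM. Notch4, the fourth receptor, held 0.595% to 1.03%.

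**Figure D3:**
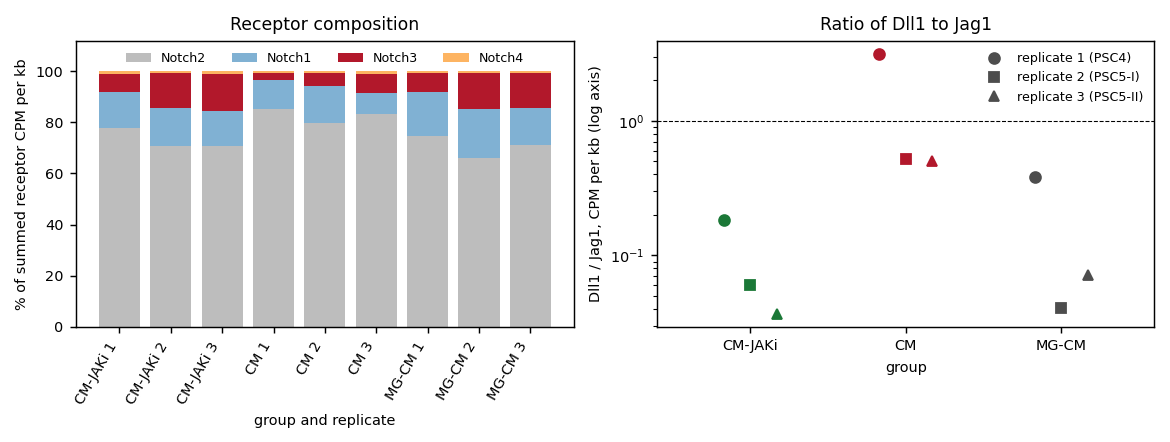
Left, share of each receptor in the summed receptor level (% of CPM per kb) in 9 libraries; right, ratio of Dll1 to Jag1 per length on a log axis, 1 symbol per library. Notch2 takes 79.8% to 85.3% in CM and 65.9% to 77.7% elsewhere, and the ratio is highest in CM within each replicate number.

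Delta-like ligands were measured beside the Jagged ones. Dll1, which encodes a Delta-like ligand, had 1.63, 0.539 and 0.387 CPM in CM-JAKi, 16.2, 2.76 and 2.69 CPM in CM, and 2.78, 0.541 and 0.682 CPM in MG-CM. It was highest in CM within each number, opposite in direction to Jag1, and PSC4 had the highest level within each group. Across numbers, CM lay above CM-JAKi and overlapped MG-CM through its PSC4 library. CM against MG-CM had an adjusted p of 0.131 (log2 fold change 2.43 ± 0.93), or 0.00180 with the block and 0.0280 by DESeq2. For CM-JAKi against CM it was 0.0568 (-3.06 ± 0.96), or 0.000388 with the block and 0.00256 by DESeq2. CM replicate 1 weighed on both values: without it the fold changes were 1.02 (adjusted p = 0.499) and -1.66 (0.215). Leaving out MG-CM replicate 1 gave 3.55 (0.0853) in the first comparison and an adjusted p of 0.0443 in the second. The ratio of Dll1 to Jag1 per length was 0.184, 0.0601 and 0.0369 in CM-JAKi, 3.15, 0.524 and 0.50 in CM, and 0.385, 0.0408 and 0.0714 in MG-CM. Dll1 thus exceeded Jag1 in CM replicate 1 and in no other library. Dll4, a ligand best known from endothelium, had 0 to 7 counts per library and was not kept for testing. Of the 5 ligand genes tested beside Jag1 and Jag2, Dll1 among them, 0 were called in CM against MG-CM without the block (10.2% of all genes). The block called 1 of the 5 higher and 3 lower there, against 11.6% and 12.8% of all genes. In CM-JAKi against CM 2 of these ligand genes rose (10.1% of all genes). Mfap2, a microfibril gene whose protein binds Jagged1, rose by 1.99 ± 0.39 (adjusted p = 0.0105), and the other was Dlk2, a Delta-like homologue. The block called 3 of the 5 higher there and 1 lower, against 18.6% and 15.6% of all genes. Dlk1 had 12.2, 81.3 and 36.7 CPM in CM-JAKi, 3.89, 16.9 and 9.51 CPM in CM, and 24.7, 80.5 and 52.4 CPM in MG-CM. It was lowest in CM within each number, and was named after these values were seen.

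A list of 70 other genes of the pathway gives the setting, of which 59 were tested. In CM against MG-CM, 2 were called higher and 7 lower, and with the block 7 and 17. Their median was -0.01 on the log2 scale. In CM-JAKi against CM, 13 were called higher and 4 lower, and with the block 18 and 7. Their median was 0.11. In CM-JAKi against MG-CM edgeR called 0, against 8 at an unadjusted p under 0.05 (1453 of all 13613 genes), 4 with the block and 2 by DESeq2. These counts stand beside the shares of all genes given above. Without MG-CM replicate 2 the first comparison called 0 of the 59, and fewer than 5 were also called without CM replicate 1 or 2, MG-CM replicate 1 or 3, or CM-JAKi replicate 2 (counts of 1 to 4). Without CM-JAKi replicate 2 the second called 7, and without CM-JAKi replicate 3 it called 10. Aes, Aph1c, Dtx3l, Mfap2, Myc, Numbl and Tle2 were called in CM-JAKi against CM without each library in turn. Leaving out CM-JAKi replicate 2 ended the calls of Bhlhe40, Fhl1, Lfng, Maml2, Maml3 and Rbpj there. Leaving out CM-JAKi replicate 3 ended those of Bhlhe40, Lfng, Maml2 and Maml3, and CM replicate 1 those of Bhlhe40, Maml2 and Maml3. CM replicate 2 decided Lfng and Maml2, CM-JAKi replicate 1 Rbpj and Maml2, and CM replicate 3 and MG-CM replicate 2 Maml2.

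Lfng, the Lunatic fringe glycosyltransferase that modifies Notch receptors and shifts their preference between Delta-like and Jagged ligands, had 5.51, 7.30 and 6.34 CPM in CM-JAKi, 0.800, 2.45 and 3.12 CPM in CM, and 7.44, 10.7 and 9.78 CPM in MG-CM. The 3 groups did not overlap. In CM against MG-CM Lfng fell by 2.13 ± 0.41 on the log2 scale (adjusted p = 0.0186), and in CM-JAKi against CM it rose by 1.58 ± 0.41 (adjusted p = 0.0292). The first call was lost without MG-CM replicate 2 (adjusted p = 0.0812), and the highest adjusted p of the second, without CM-JAKi replicate 2, was 0.0963.

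Among nuclear partners of the receptor, 4 of 17 tested genes fell in CM against MG-CM and 0 rose, where 5.39% and 4.85% of all genes did. In CM-JAKi against CM 6 rose and 1 fell, where 10.1% and 8.93% of all genes did (Tle4, a relative of Tle2, is the gene among the 6 without values here). Rbpj, which encodes the DNA-binding factor of the pathway, had 203, 227 and 239 CPM in CM-JAKi, 445, 325 and 298 CPM in CM, and 257, 225 and 286 CPM in MG-CM. In CM-JAKi against CM it fell by 0.68 ± 0.16 on the log2 scale (adjusted p = 0.0222). Its 0.47 ± 0.16 in CM against MG-CM missed the threshold (adjusted p = 0.0937). Rbpj was therefore highest in the group in which Notch3, Jag1 and Hey2 were lowest. The Mastermind coactivator gene Maml2 fell by 0.74 ± 0.16 in CM against MG-CM (adjusted p = 0.0268) and rose by 0.60 ± 0.16 in CM-JAKi against CM (adjusted p = 0.0369). For its relative Maml3 the rise in CM-JAKi against CM was 0.58 ± 0.12 (adjusted p = 0.0153). The Groucho-type corepressor gene Tle2 had 33.2, 28.3 and 31.4 CPM in CM-JAKi, 9.56, 15.1 and 15 CPM in CM, and 29.1, 24.3 and 18.8 CPM in MG-CM, and was called lower in CM (adjusted p = 0.0328) and higher with the inhibitor (0.00631). Aes, a shorter Groucho relative, fell by 0.38 ± 0.10 and rose by 0.48 ± 0.10 in the same comparisons. Fhl1, a LIM-domain gene with an isoform that binds RBPJ, fell by 1.12 ± 0.24 and rose by 1.15 ± 0.24.

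Of 10 receptor cleavage genes, 1 fell in CM against MG-CM, where 5.39% of all genes did. In CM-JAKi against CM 2, Aph1c and its relative Aph1b, rose, where 10.1% of all genes did. Aph1c, which encodes a subunit of gamma-secretase, fell by 1.10 ± 0.23 in CM against MG-CM (adjusted p = 0.0231) and rose by 1.52 ± 0.23 in CM-JAKi against CM (adjusted p = 0.00444). The ADAM proteases Adam10, at 95.1 to 135 CPM over all 9 libraries, and Adam17, at 145 to 215 CPM, were not called in any comparison without the block. The same held for Psen2, which encodes a presenilin of gamma-secretase, at 6.88 to 11.4 CPM. With the block Psen2 was called higher in CM-JAKi than in CM (adjusted p = 0.0415, against 0.0653 without it), and Adam10 and Adam17 were not called in any comparison.

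Of 16 trafficking and turnover genes tested, 2 rose and 1 fell in CM against MG-CM, where 4.85% and 5.39% of all genes did. In CM-JAKi against CM 2 rose and 1 fell, where 10.1% and 8.93% of all genes did. Beside the genes with values below, the called ones were the epsin gene Epn2, higher in CM, and the ubiquitin ligase gene Fbxw7, higher with the inhibitor. Both were named after their values were seen. Dtx3l, a Deltex-type ubiquitin ligase that is also an interferon-stimulated gene, had 21.0, 12.7 and 13.9 CPM in CM-JAKi, 132, 133 and 89.3 CPM in CM, and 76.2, 35.7 and 39.3 CPM in MG-CM. It rose by 1.23 ± 0.32 in CM against MG-CM (adjusted p = 0.0443) and fell by 2.89 ± 0.34 in CM-JAKi against CM (adjusted p = 0.00138). Numbl, a relative of the Notch antagonist Numb, fell by 0.35 ± 0.08 in CM against MG-CM (adjusted p = 0.0279) and rose by 0.42 ± 0.08 in CM-JAKi against CM (adjusted p = 0.00919).

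Of 6 other targets tested, 0 were called in CM against MG-CM without the block, where 10.2% of all genes were. The block called 2 of the 6 higher and 3 lower, where it called 11.6% and 12.8% of all genes. In CM-JAKi against CM 2 fell, where 8.93% of all genes did. Myc, a growth regulator with many inputs besides Notch, had 26.1, 31.9 and 39.3 CPM in CM-JAKi, 90.7, 71.9 and 59.0 CPM in CM, and 43.4, 42.4 and 52.3 CPM in MG-CM. In CM-JAKi against CM it fell by 1.19 ± 0.19 (adjusted p = 0.00548), and its 0.68 ± 0.19 in CM against MG-CM missed the threshold (adjusted p = 0.0536, or 0.0491 with the block). Bhlhe40, a repressor of the same broad bHLH class as HES and HEY, fell by 1.56 ± 0.35 in CM-JAKi against CM (adjusted p = 0.0176). In CM against MG-CM it differed by 1.06 ± 0.34 (adjusted p = 0.0836, or 0.00136 with the block). The targets thus lay on different sides, with Hey2 lowest in CM and Myc and Bhlhe40 highest there.

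**Figure D4:**
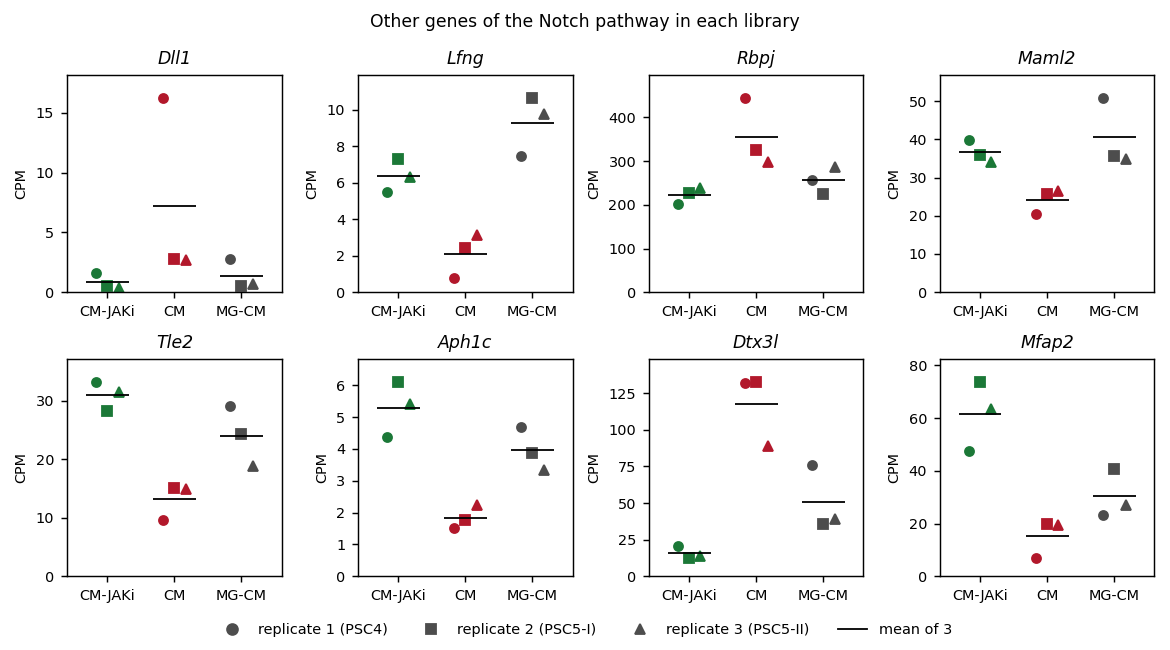
Levels of 8 other pathway genes in CPM (vertical axes, each from 0) in CM-JAKi, CM and MG-CM, drawn as in the plot of Notch genes by library. Lfng, Maml2, Tle2, Aph1c and Mfap2 are lowest in the CM group, and Dll1, Rbpj and Dtx3l have their highest mean there.

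Cell identity was checked with marker genes. The sum of 9 stellate and fibroblast markers was 4977 to 6102 CPM in CM-JAKi, 3861 to 7025 CPM in CM and 4430 to 5007 CPM in MG-CM, while Gfap, a marker of quiescent stellate cells, was at 0 to 0.185 CPM. Members of that list moved in opposite directions within these sums. The matrix proteoglycan gene Dcn averaged 398 ± 160 CPM in CM-JAKi, 2718 ± 1737 CPM in CM and 375 ± 127 CPM in MG-CM (SD, n = 3 each), and was called higher in CM than in MG-CM (adjusted p = 0.0175) and lower with the inhibitor (0.0102). Vim averaged 765 ± 187 CPM in CM and 1557 ± 333 CPM in MG-CM and was called lower in CM (adjusted p = 0.0415). Acta2, the smooth muscle actin of activated stellate cells, averaged 405 ± 164 CPM in CM-JAKi, 71.7 ± 54.5 CPM in CM and 513 ± 217 CPM in MG-CM. Its adjusted p was 0.0556 for CM against MG-CM and 0.0559 for CM-JAKi against CM, or 0.00965 and 0.00861 with the block. The collagen genes Col1a1 and Col1a2 were called higher in CM-JAKi than in CM (adjusted p = 0.0147 and 0.00473). With the block they were also called higher in CM-JAKi than in MG-CM (0.0295 and 0.0115). These changes ran alongside those of the Notch genes, and their part in the Notch results was not tested.

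Of the epithelial markers, Epcam and Cdh1 stayed at or below 0.209 CPM in every library, while Krt19 had 0.765 to 25.1 CPM and Muc1 1.97 to 16.5 CPM. The sum of 6 epithelial markers was 12 to 28.6 CPM in CM-JAKi, 15.6 to 21.0 CPM in CM and 18.0 to 21.6 CPM in MG-CM. Muc1 was called lower in CM-JAKi than in CM (adjusted p = 0.0326), and with the block Krt19 was called lower in CM than in MG-CM (0.0156) and higher in CM-JAKi than in CM (0.00358). The leukocyte marker Ptprc was at or below 0.0387 CPM, while the macrophage genes Csf1r and Cd68 had 1.05 to 2.40 CPM. Their list of 7 genes summed to 3.17 to 4.49 CPM in CM-JAKi, 3.65 to 4.17 CPM in CM and 3.09 to 4.13 CPM in MG-CM, and 0 of its 3 tested genes were called with or without the block. In bulk RNA, fewer cells of a kind and less RNA per cell cannot be told apart. The sum of 8 mural cell markers was 51.9 to 64.5 CPM in CM-JAKi, 30.8 to 49.0 CPM in CM and 54.1 to 97.7 CPM in MG-CM. Like Notch3 this sum was lowest in CM, but its members did not all follow Notch3. Mcam, with the highest mean of that list in each group, averaged 25.7 CPM in CM-JAKi, 26.8 CPM in CM and 40.1 CPM in MG-CM. Within that list 0 of 5 tested genes were called in CM against MG-CM or CM-JAKi against CM without the block. With it, Cnn1 was called lower in CM than in MG-CM (adjusted p = 0.000532), and Cnn1, Cspg4 and Myh11 higher in CM-JAKi than in CM (0.000508, 0.0140 and 0.0443). The pericyte markers Kcnj8, Abcc9 and Higd1b were at 0 in some libraries, with Higd1b below 0.1 CPM in all. The sum of 8 endothelial markers was 8.32 to 16.2 CPM in CM-JAKi, 2.69 to 3.58 CPM in CM and 5.46 to 6.59 CPM in MG-CM. Of its 6 tested genes 2, Tek and Emcn, fell in CM and rose with the inhibitor, where 5.39% and 10.1% of all genes did. Pecam1, Kdr, Esam and Erg were called in no comparison, with or without the block. Emcn was also called higher in CM-JAKi than in MG-CM, at 7.54 against 0.790 CPM on average (adjusted p = 0.0280). Cdh5, Emcn and Sox17 were at 0 in some libraries. The part of these cell types in the Notch results was not tested.

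The genes most like Jag1 and Hey1 over the 9 libraries, by Pearson correlation of log2 CPM among 10156 genes, were looked up because these 2 had the smallest p for any difference among the 3 groups. For Jag1 these were Pepd (r = 0.972), Chst14 (0.963), Pccb (0.958), Bcat2 (0.958) and Mrrf (0.954). For Hey1 they were Ncoa5 (0.942), Epdr1 (0.936), Sept8 (0.924), Rp9 (0.918) and Psap (0.906). The 9 points share lines, medium sources and groups, so the values describe likeness in these libraries.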

How the data were processed

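Libraries were made with a stranded TruSeq total RNA kit after ribosomal depletion and PureLink extraction, per the labels' protocols. STAR 2.5.1b, RSEM 1.2.29, DESeq2 and the builds NCBIM37 and mm9 appear in the submitters' processing notes, without roles. The table deposited by the authors holds expected counts per gene, unscaled whole numbers. Estimated counts divide reads between similar genes. Every sample column was matched to a label.

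The main test was edgeR 4.0.16 in R 4.3.3 (filterByExpr with minimum count 10 and minimum total 15, TMM, robust quasi-likelihood fit on all 9 libraries, 1 term for each group). The filter kept 13613 of 17156 genes. DESeq2 1.42.0, other scalings, no filter, a line term, a replicate block and each library left out were alternatives. Libraries of one number share a stellate line, as the labels state. Deviations from group means correlated at 0.291 to 0.680 over 9 same-number pairs and at -0.536 to 0.279 over 18 others. The negative values all set PSC4 against PSC5, and between PSC5 libraries the ranges nearly met, at 0.291 and 0.279. Centring on group means also lowers correlations between numbers, so these values describe likeness and do not test the pairing. Replicates are separate cultures with separate medium sources.

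The members, the pathway list, the markers and the rule for naming genes were chosen with earlier results of these data known. The rule took all members, the 12 called pathway genes with the smallest p, and Dll1, Dll4, Notch4, Rbpj, Adam10, Adam17, Psen2 and Lfng, and 1 further gene that is not reported here. Exon lengths came from GENCODE M21 (GRCm38), so levels per kb are on another annotation than the authors'. The fit was tested on simulated counts with known changes in CM and no effect of line or replicate number. That simulation therefore does not show how the fits, with or without the block, handle such effects here.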

Additional observations from a re-analysis of the deposited data

Results flagged for a closer look

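In 4 cases the PSC4 pair moved one way and both PSC5 pairs the other. For Notch2 the log2 fold change of CM against MG-CM was lower in PSC4 than in PSC5 by -0.50 ± 0.18 (adjusted p = 0.256 in edgeR's test of the difference; unadjusted 0.0242), and that of CM-JAKi against CM was higher in PSC4 by 0.43 ± 0.18 (adjusted p = 0.373). The pairs behind these values were -0.25 in PSC4 and 0.37 and 0.15 in PSC5 for CM against MG-CM, then 0.19 in PSC4 and -0.18 and -0.30 in PSC5 for CM-JAKi against CM. For Hes1 in CM against MG-CM the difference was 0.37 ± 0.21 (adjusted p = 0.456). For Jag2 in CM-JAKi against CM it was 0.37 ± 0.64 (adjusted p = 0.859), from 11 to 20 counts per library. PSC4 has 1 library in each group, and the line cannot be told apart from its medium source.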

How the results depend on the processing

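With the replicate block, Notch genes called moved to 5 for CM against MG-CM and 4 for CM-JAKi against CM, pathway genes to 24 in the first and 4 for CM-JAKi against MG-CM, and all genes to 3325, 4655 and 579 in the 3 comparisons, against 1394, 2585 and 137 without it. A term for the line gave 4 and 3 Notch genes, 23 and 4 pathway genes, and 3216, 4532 and 523 of all genes. DESeq2 gave 3 Notch genes in both of the first comparisons, 21 and 2 pathway genes, and 2486 and 504 of all genes in CM and CM-JAKi against MG-CM. Library size alone moved the median log2 fold change of all genes to -0.07, 0.10 and 0.03. It gave 4 Notch genes called higher in CM-JAKi against CM: Notch3, Jag1, Hey2 and Hes1 (adjusted p = 0.0428 for Hes1). Over all genes it gave a split there of 1853 higher and 865 lower, against 1369 and 1216. In CM against MG-CM it gave 495 higher and 887 lower, against 660 and 734, and 1 and 8 pathway genes, against 2 and 7. It also turned the sign of 3 values near 0: Notch2 in CM-JAKi against CM to 0.00962, Hey1 there to 0.00636 and Notch2 in CM-JAKi against MG-CM to 0.0109.

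Leaving out each library gave 0 to 1, 0 to 3 and 0 to 0 Notch genes called in the 3 comparisons, 0 to 11, 7 to 17 and 0 to 1 pathway genes, and 131 to 1442, 991 to 2617 and 32 to 185 of all genes, with the smallest count of all genes in CM against MG-CM without MG-CM replicate 2. A line difference was called in 0 to 1 Notch genes in CM against MG-CM, the 1 being without CM replicate 2. Fold changes that crossed 0 were Notch2 (-0.042 to 0.24) and Hes1 (-0.11 to 0.056) in CM against MG-CM, Hey1 (-0.29 to 0.061) in CM-JAKi against CM, and Notch2 (-0.14 to 0.14), Notch3 (-0.20 to 0.16), Jag1 (-0.28 to 0.17) and Hey2 (-0.23 to 0.67) in CM-JAKi against MG-CM. All of these had passed no threshold. In fits added after the data were seen, with the block and all 3 libraries of number 1, 2 or 3 left out, Notch genes called were 3, 1 and 1 for CM against MG-CM, 4, 2 and 1 for CM-JAKi against CM, and 0 each time for CM-JAKi against MG-CM.

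The cause of these movements was not tested. Depth limits Jag2, Hey1, Hey2 and Nrarp. The block changed no call of the Notch genes beyond those given with the results.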
